A study of Arabidopsis thaliana with 6 samples.

Results

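The cell wall set held 37 *Arabidopsis thaliana* genes of the expansin, xyloglucan endotransglucosylase/hydrolase (XTH), cellulose synthase-like (CSL) and SKU5-similar (SKS) families, out of 13356 genes that had a named probe set on the array. Members were selected by gene symbol, from probe sets that name a single gene. The rule uses no measured value, but the families in it were proposed with earlier results of these arrays known. Each of the 37 genes had 1 probe set. The symbol pattern also covered cellulose synthases (CESA), arabinogalactan proteins (AGP) and fasciclin-like arabinogalactan proteins (FLA), but 0 single-gene probe sets carried such a symbol, so those families were not analysed here and the set holds no arabinogalactan gene. The RefSeq gene table lists 164 genes under the pattern. Coverage was 10 of 24 α-expansins (EXPA), 4 of 6 β-expansins (EXPB), 3 of 3 EXLA and 1 of 1 EXLB expansin-like genes, 9 of 30 XTH genes, 2 of 7 CSLA, 4 of 4 CSLC, 1 of 6 CSLD and 3 of 18 SKS genes.

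A growing plant cell wall is a mesh of cellulose microfibrils tied by hemicelluloses such as xyloglucan and embedded in pectin. Expansins loosen this mesh without cutting it, and XTH enzymes cut and rejoin xyloglucan chains. CSLC proteins make the glucan backbone of xyloglucan, CSLA proteins make mannans, and CSLD proteins make cellulose-like chains, among other places in tip-growing cells. Petals, stamens, pollen tubes and carpels all enlarge by wall remodelling, and the members of these families differ in the organs where they are active.

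Expression was measured in whole inflorescences of the mutant *top1α-2* (3 arrays) and of the wild type (3 arrays), both in the accession Landsberg erecta and grown under continuous light at 23 °C. The mutated gene encodes a DNA topoisomerase 1, which relaxes supercoiled DNA, and the comparison asks which transcripts depend on it. The replicates are described as biological. Values are log2 MAS5 signals from an Affymetrix array, and signals of different probe sets are not set against each other here because each probe set has its own affinity.

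The trimmed mean of the unlogged signal was 500 on all 6 arrays. Pearson correlations between arrays, over 11369 probe sets above the median signal, ranged from 0.978 to 0.985 among *top1α-2* arrays, from 0.955 to 0.977 among wild-type arrays and from 0.887 to 0.938 across genotypes. As a sign of RNA quality, the log2 signal at the 3′ end minus that at the 5′ end was taken for 3 controls. For actin this log2 difference averaged 4.03 ± 0.07 on *top1α-2* arrays and 3.57 ± 0.19 on wild-type arrays (SD, n = 3 each) without overlap. The GAPDH and ubiquitin controls overlapped. A probe set naming the mutated gene was not used here, so its level gives no check of the labels. With 3 arrays per genotype, their number limits the precision.

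Of the 37 members, 6 were higher and 5 were lower in *top1α-2* inflorescences, and 26 were not called. The genes that rose were the expansin genes *EXPA20* and *EXPA4*, the expansin-like gene *EXLB1* and the mannan synthase gene *CSLA03*. The xyloglucan-modifying genes *XTH32* and *XTH16* rose as well. Those that fell were the expansin genes *EXPB5* and *EXPA8*, the xyloglucan synthase genes *CSLC12* and *CSLC04*, and *sks18*. The largest changes among these were a 3.38-fold higher level for *EXPA20* and, as wild type over mutant, 4.19-fold for *EXPB5* and 4.18-fold for *sks18*. A call is a limma adjusted p under 0.05, with the Benjamini-Hochberg adjustment over all 22746 probe sets.

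Across the array, 3.40% of probe sets were called higher and 5.86% lower, and among named genes 2.96% and 5.41%, against 16.2% and 13.5% of the members. These were 773 probe sets higher and 1334 lower, a split that median centring moved to 1153 and 1167 while the members' counts stayed at 6 and 5. Brighter genes were called more often in general. Among the 18 members whose mean signal lay above the median probe set, 4 were higher and 4 lower (22.2% each), where all 5886 named genes of that kind had 5.50% higher and 7.51% lower. Since the families were proposed with results known, these shares describe the set and are not a test of it. The median log2 difference of the members was −0.06, against −0.01 for all named genes, and it was 0.03 after median centring and 0.06 after quantile normalization. Without *top1α-2* replicate 3 the members called higher numbered 3 instead of 6, and without the trend in the variance prior 3 were higher and 3 lower. Those 3 lower members included *sks16*, which was not called with the trend.

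**Figure D1:**
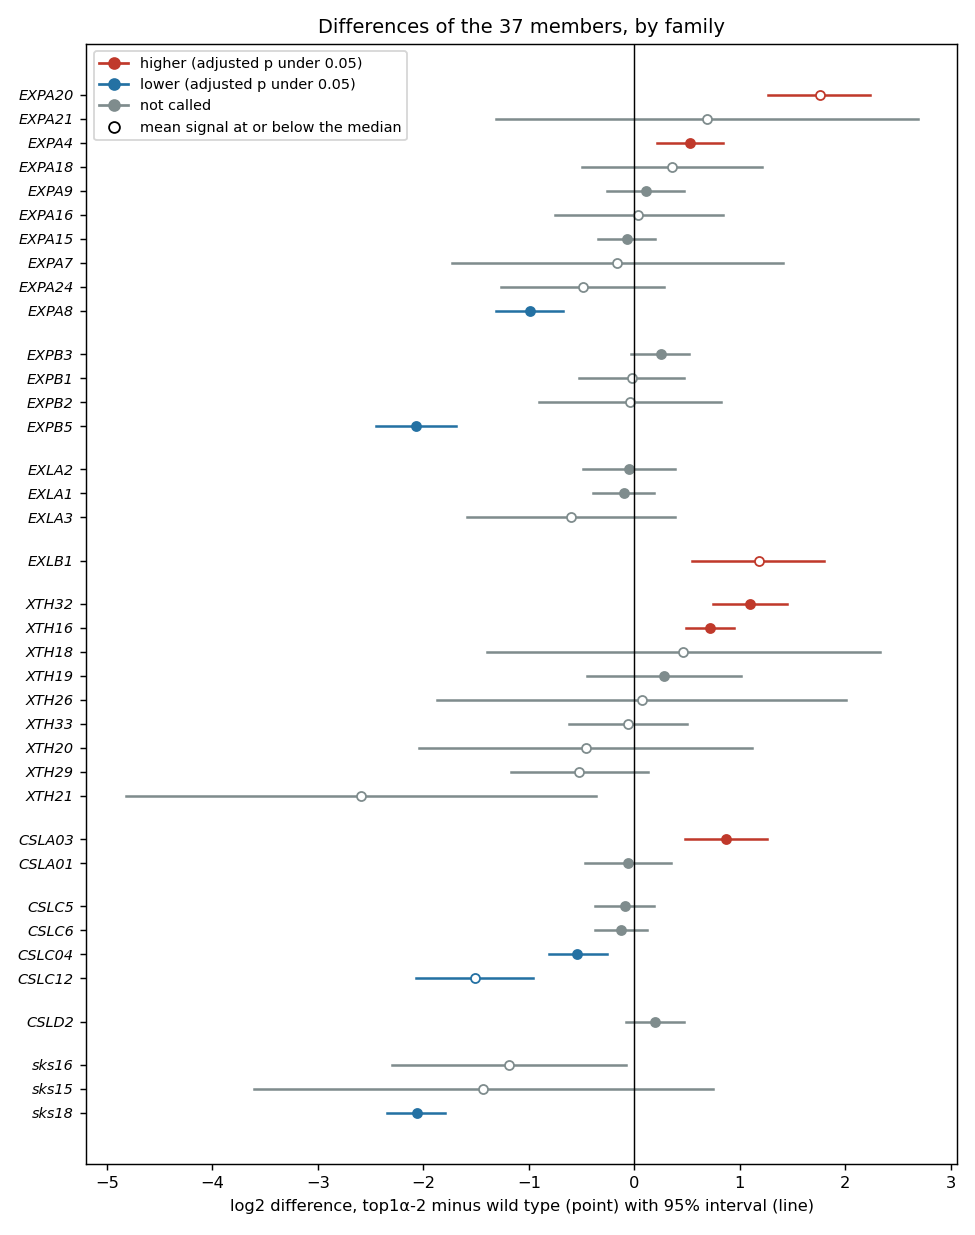
Log2 difference (*top1α-2* minus wild type, x axis) of each of the 37 members, grouped by family down the page, with 95% intervals from the limma fit as lines; colour gives the call, and open points mark a mean signal at or below the median of all probe sets. Members called higher run from 0.53 (*EXPA4*) to 1.76 (*EXPA20*), members called lower from −0.54 (*CSLC04*) to −2.07 (*EXPB5*), and the widest intervals belong to dim members such as *XTH21*.

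Because whole inflorescences were ground, fewer cells of a type and less RNA per cell cannot be told apart in any of these values.

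Among the α-expansins, which act on walls of many growing organs, 2 of 10 rose and 1 fell. *EXPA20* had log2 signals of 8.89, 8.71 and 8.23 in *top1α-2* replicates 1 to 3, against 6.64, 7.15 and 6.77 in the wild type. All mutant values lay above the highest wild-type value, with a log2 difference of 1.76 (SE 0.22) and a limma adjusted p of 0.000627. *EXPA20* ranked 201 of 22746 probe sets from the highest difference, and its call held under every alternative in which it was tested.

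*EXPA4* had 11.50, 11.16 and 11.39 in *top1α-2*, against 10.75, 10.62 and 11.09 in the wild type. The genotypes were separated by only the gap between *top1α-2* replicate 2 and wild-type replicate 3, and the log2 difference was 0.53 (SE 0.14, limma adjusted p of 0.0417). This call was lost without wild-type replicate 1 or 2 or *top1α-2* replicate 1 or 3. It was also lost with a pseudocount of 16 and without the trend in the variance prior. Over all alternatives the limma adjusted p ran from 0.023 to 0.193.

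*EXPA8* moved the other way, with 9.69, 10.11 and 10.24 in *top1α-2* and 10.99, 10.91 and 11.12 in the wild type. Its log2 difference was −0.99 (SE 0.14, limma adjusted p of 0.0015), or 1.99-fold as wild type over mutant, and the wild-type SD was 0.11. The 95% intervals of *EXPA8* (−1.31 to −0.68) and *EXPA20* (1.27 to 2.24) were on opposite sides of 0. Members of 1 family thus moved in both directions on the same arrays, and the difference between the genes was not itself tested.

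The other 7 α-expansin genes had log2 differences between −0.49 (*EXPA24*) and 0.69 (*EXPA21*). *EXPA15* was steady, at 10.66, 10.65 and 10.68 in *top1α-2* and 10.81, 10.47 and 10.91 in the wild type, and its 95% interval ran from −0.34 to 0.20. *EXPA9* had a difference of 0.11 with an interval from −0.26 to 0.47. *EXPA7* and *EXPA18*, known for expression in root hairs, were dim. *EXPA7* had 3.97, 2.78 and 4.06 in *top1α-2* and 2.92, 3.79 and 4.59 in the wild type, and *EXPA18* had 5.60, 5.61 and 6.02 in *top1α-2* and 5.20, 5.82 and 5.14 in the wild type. Both overlapped between the genotypes, and signals this far below the array median of 7.73 are given as signals and not as expression.

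Of the 4 β-expansin genes, 1 fell and 0 rose. *EXPB5* had 7.88, 7.44 and 7.80 in *top1α-2*, against 10.09, 9.58 and 9.65 in the wild type. The gap between the genotypes was far wider than the spread within either, and the log2 difference was −2.07 (SE 0.17, limma adjusted p of 6.51e-05). It ranked 477 of 22746 probe sets from the lowest difference. *EXPB3* had 11.78, 11.50 and 11.68 in *top1α-2* and 11.50, 11.21 and 11.51 in the wild type, which overlapped, with a 95% interval from −0.03 to 0.52 that did not reach the interval of *EXPB5* (−2.45 to −1.69). *EXPB1* and *EXPB2* had differences of −0.02 and −0.04 and overlapped.

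Expansin-like genes encode proteins of expansin form for which wall loosening has not been shown. *EXLB1* had 7.69, 7.02 and 6.97 in *top1α-2* and 6.09, 6.17 and 5.89 in the wild type, a log2 difference of 1.18 (SE 0.28, limma adjusted p of 0.0269). All mutant values were higher, but *top1α-2* replicate 1 stood above the other mutant arrays. Leaving out any array other than wild-type replicate 2 ended the call, as did a variance prior without the trend. Over all alternatives the limma adjusted p ran from 0.0159 to 0.124. *EXLA1*, *EXLA2* and *EXLA3* were not called, at −0.10, −0.05 and −0.60. *EXLA1* had 10.37, 10.38 and 10.77 in *top1α-2* and 10.57, 10.77 and 10.48 in the wild type. *EXLA3*, which lies directly beside *EXLA1* in locus order, was dim and had a 95% interval from −1.59 to 0.39.

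**Figure D2:**
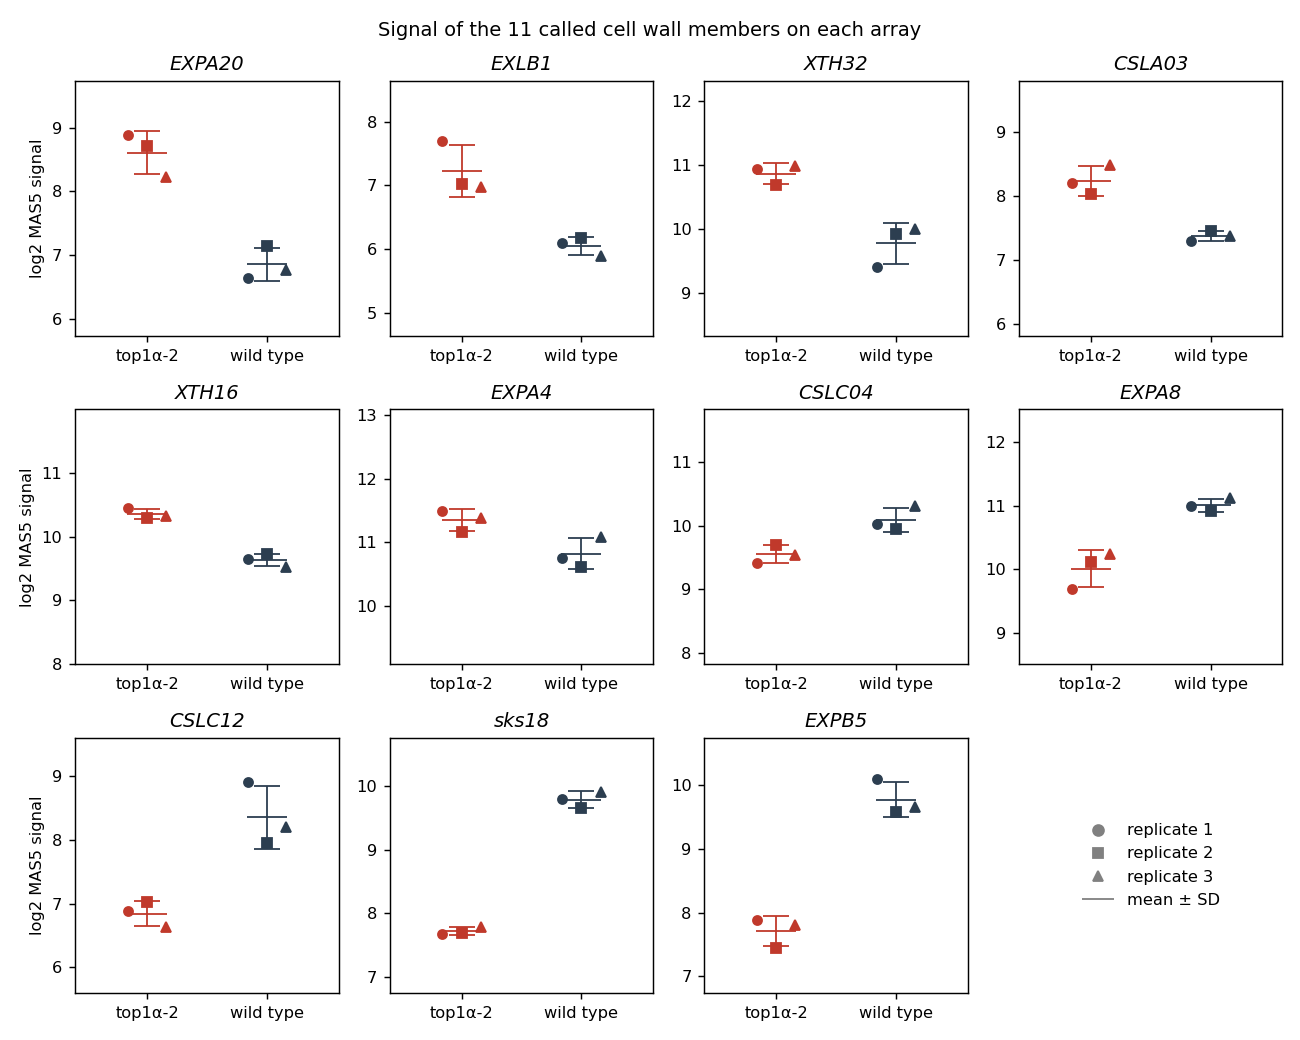
Log2 MAS5 signal (y axis, 4 log2 units in every panel) of the 11 called members on each array, with *top1α-2* on the left and the wild type on the right; symbols are replicates 1 to 3 and bars are the mean ± SD. The genotypes do not overlap in any of the 11 panels, and the gap is widest against the spread for *sks18* and narrowest for *EXPA4*.

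Of the 9 XTH genes, 2 rose and 0 fell. *XTH32* had 10.94, 10.68 and 10.98 in *top1α-2*, against 9.40, 9.92 and 9.99 in the wild type, a log2 difference of 1.10 (SE 0.16, limma adjusted p of 0.00156). Wild-type replicate 1 was the lowest of its group, and without that array the difference was still called. *XTH16* had 10.45, 10.29 and 10.32 in *top1α-2* and 9.64, 9.73 and 9.53 in the wild type. Its difference was 0.72 (SE 0.10, limma adjusted p of 0.00149), and with SDs of 0.09 in *top1α-2* and 0.10 in the wild type it was among the tightest of the members.

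The 7 XTH genes that were not called included 6 with a mean signal at or below the array median. *XTH21* had the most negative difference of all 37 members at −2.59, from values of −0.06, 0.29 and 0.76 in *top1α-2* and 1.27, 4.03 and 3.45 in the wild type. Such signals are near the lower end of the scale, the SE was 1.01 and the limma adjusted p was 0.151, and with a pseudocount of 16 the difference shrank to −0.54. *XTH18* and *XTH19* are direct neighbours in locus order, and neither was called, at 0.46 and 0.28. *XTH29* had a difference of −0.52 with values that did not overlap (limma adjusted p of 0.332), and *XTH20*, *XTH26* and *XTH33* overlapped.

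The xyloglucan synthase family CSLC was measured through all 4 genes with such a current symbol, of which 2 fell and 0 rose. *CSLC12* had 6.88, 7.02 and 6.63 in *top1α-2*, against 8.91, 7.95 and 8.21 in the wild type. Its log2 difference was −1.51 (SE 0.25, limma adjusted p of 0.00366), and wild-type replicate 1 was the highest array. Without that array the difference was −1.24 and still called. *CSLC04*, the gene of a well-studied xyloglucan glucan synthase, had 9.42, 9.70 and 9.54 in *top1α-2* and 10.02, 9.95 and 10.30 in the wild type. The difference was −0.54 (SE 0.12, limma adjusted p of 0.0229). The call was lost without wild-type replicate 3, *top1α-2* replicate 1 or *top1α-2* replicate 3, and without the trend in the variance prior. Over all alternatives its limma adjusted p values ran from 0.0205 to 0.139.

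The remaining pair of CSLC members was not called, nor was *CSLC08*, a gene outside the set that bears this name only as a synonym. *CSLC5* had a difference of −0.09 with a 95% interval from −0.37 to 0.19. *CSLC6* had −0.13 with an interval from −0.37 to 0.12, and its mutant values lay just below the wild-type values without overlap.

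Of the mannan synthase genes, *CSLA03* rose and *CSLA01* was not called. *CSLA03* had 8.20, 8.03 and 8.49 in *top1α-2*, against 7.29, 7.45 and 7.37 in the wild type, a log2 difference of 0.87 (SE 0.17, limma adjusted p of 0.0104). Wild-type arrays were close together and all mutant arrays higher, yet without *top1α-2* replicate 3 the difference was 0.74 and not called, and limma adjusted p values over all alternatives ran from 0.00593 to 0.0656. *CSLA01* had 10.78, 10.80 and 10.38 in *top1α-2* and 11.09, 10.33 and 10.73 in the wild type, which overlapped.

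*CSLD2*, known for root hair growth, had 8.57, 8.64 and 8.77 in *top1α-2* and 8.42, 8.42 and 8.55 in the wild type. The mutant values lay above the wild-type values by a narrow margin, and the difference of 0.20 had a 95% interval from −0.08 to 0.47. With *EXPA7* and *EXPA18* it made up the 3 measured members of a list of 4 root hair genes, of which 0 were called. Lists of primary wall, secondary wall and pollen members drawn up for this comparison had 0 of 6, 0 of 5 and 0 of 9 genes found by symbol among single-gene probe sets. Probe sets without a gene name could not be searched for them.

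SKS genes encode proteins related to multicopper oxidases, named after SKU5, a cell surface protein that affects the direction of root growth. *sks18* had 7.68, 7.69 and 7.79 in *top1α-2*, against 9.79, 9.65 and 9.91 in the wild type. This was the smallest p among the members, with a log2 difference of −2.06 (SE 0.12) and a limma adjusted p of 2.49e-05. *sks16* had 3.72, 3.73 and 3.94 in *top1α-2* and 4.90, 4.98 and 5.08 in the wild type. Those values did not overlap and differed by −1.19, but the signal was dim, and the limma adjusted p was 0.183 with the trended prior and 0.0199 without the trend, within a range of 0.0199 to 0.313 over all alternatives. *sks15* scattered between 1.56 and 5.22 in *top1α-2* and between 3.20 and 5.17 in the wild type, and was not called at −1.43.

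By family, medians of the log2 difference were 0.08 for EXPA, −0.10 for EXLA, 0.07 for XTH, 0.40 for CSLA, −0.33 for CSLC and −1.43 for SKS, while that of EXPB was −0.03 and turned to 0.06 after median centring and 0.11 after quantile normalization. With single arrays left out, the EXPA median was −0.01 without *top1α-2* replicate 3, and the XTH median was −0.06 without *top1α-2* replicate 1 and −0.17 and −0.05 without the second and the third wild-type array. The EXPB median was 0.02, 0.02 and 0.03 without wild-type replicates 1 and 2 and *top1α-2* replicate 2.

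Taking the called members by direction, the genes that rose were 3 expansin or expansin-like genes, 2 XTH genes and 1 CSLA gene, and those that fell were 2 expansin genes, 2 CSLC genes and 1 SKS gene. Of the called genes that act on xyloglucan, 2 for modifying enzymes were higher and 2 for synthases were lower. The other 7 XTH and 2 CSLC members were not called, so this describes the called genes and not the families. Counting values that did not overlap between the genotypes, 7 of 37 members were higher and 9 of 37 lower. The counts were 1691 and 1855 of 13356 named genes, and 13.7% and 14.5% of all probe sets. Variation among replicates was like that of other genes, with a median SD of 0.24 in *top1α-2* and 0.28 in the wild type both for the members and for all named genes.

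**Figure D3:**
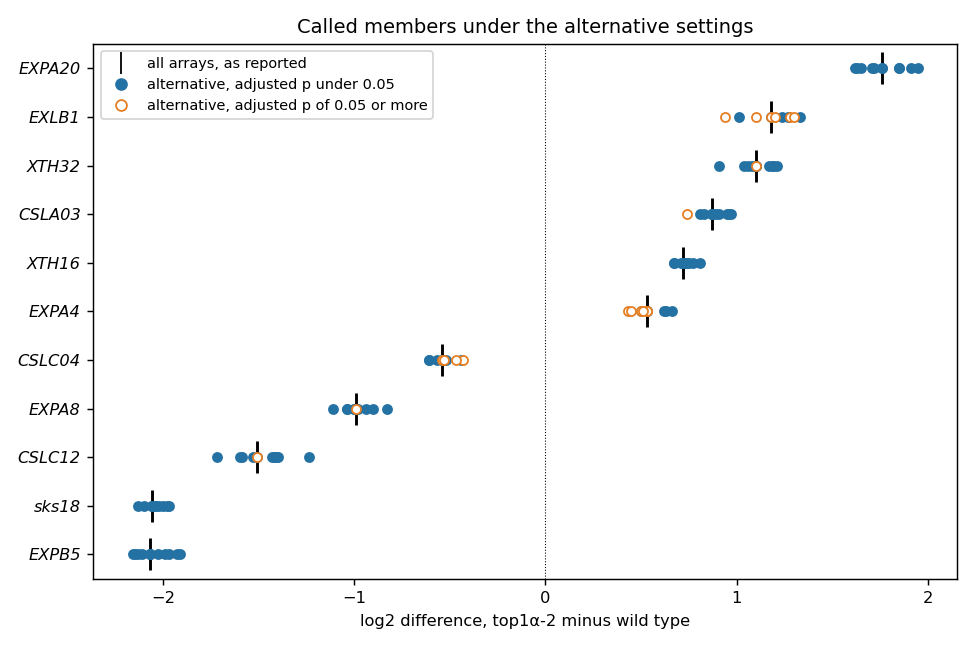
Log2 difference (*top1α-2* minus wild type, x axis) of the 11 called members with all arrays (black bars) and under the alternative settings, including each array left out (points); open orange points mark a limma adjusted p of 0.05 or more. No difference crosses 0, and 4 members, *EXPA20*, *XTH16*, *EXPB5* and *sks18*, have no open point.

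Markers of other cell types moved between the same arrays. Of 24 pollen genes looked for, 15 were measured, of which 14 fell and 0 rose. Their array means were 6.93 to 7.18 in *top1α-2* and 8.54 to 9.34 in the wild type, with wild-type replicate 1 highest. Of 12 tapetum and anther genes, 5 were measured, of which 4 fell and 0 rose, with means of 7.42 to 7.81 in *top1α-2* and 8.78 to 9.09 in the wild type. Among 8 nuclear genes of the photosystems, 2 rose and 0 fell, with means of 12.76 to 13.02 in *top1α-2* and 12.07 to 12.57 in the wild type. *ATA27*, a tapetum marker, was at 12.26, 12.25 and 12.70 in *top1α-2* and 13.50, 13.70 and 13.59 in the wild type.

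Within the wild type, all 5 members that fell were lowest on replicate 2, which also had the lowest pollen and anther means. Some of these gaps were small, as *EXPA8* had 10.91 against 10.99 on replicate 1 and *CSLC04* had 9.95 against 10.02. *EXPB5* and *CSLC12* were highest on wild-type replicate 1, as the pollen list was, while *sks18*, *EXPA8* and *CSLC04* were highest on wild-type replicate 3. Of the 6 members that rose, 4 were highest among wild-type arrays on replicate 2, the array with the highest photosystem mean. Over all 13356 named genes, wild-type replicate 2 was the lowest of the wild type for 4408 and the highest for 5117. Called genes outside the set were not counted in this way. Among *top1α-2* arrays, 3 of the 5 members that fell were lowest on replicate 1, which had the lowest pollen mean. The tapetum and anther mean was lowest on *top1α-2* replicate 2. Of the 6 members that rose, 4 were highest on *top1α-2* replicate 1, as the photosystem mean was. The part that organ or pollen content plays in the members' differences was not tested.

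**Figure D4:**
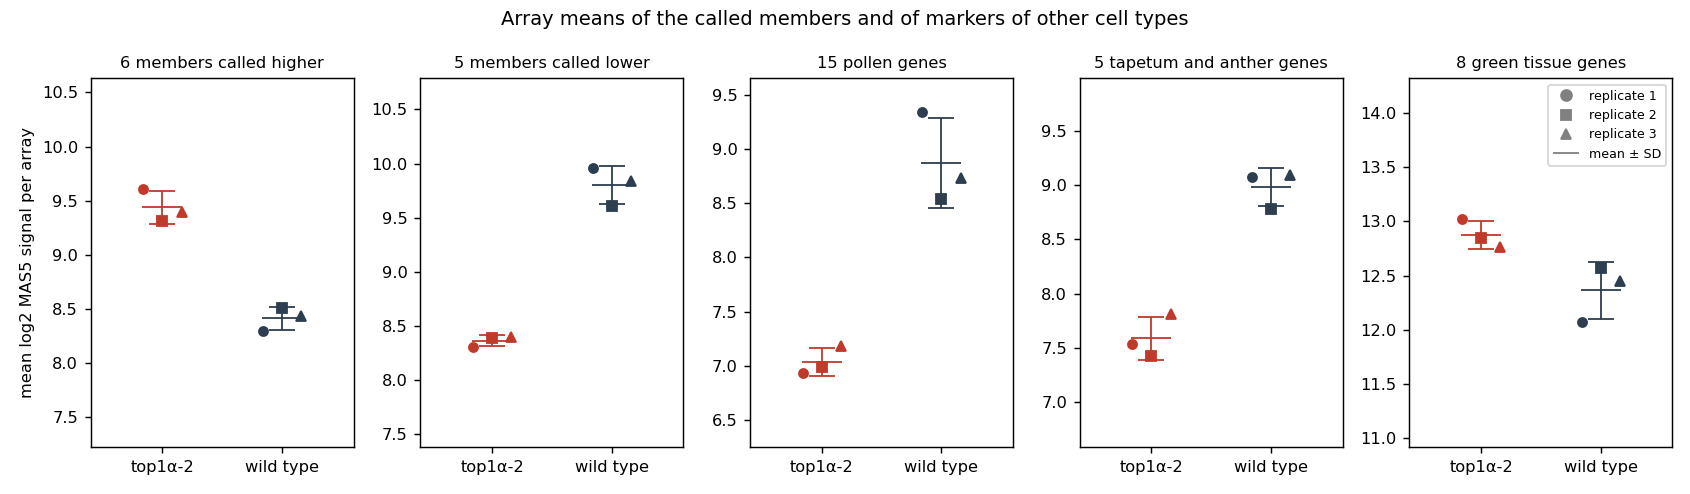
Mean log2 MAS5 signal per array (y axis, the same span in every panel) of the 6 members called higher, the 5 called lower, and 3 marker lists, with *top1α-2* on the left and the wild type on the right; symbols are replicates and bars the mean ± SD. Members called higher or lower were grouped by this same difference, so their separation is given by the grouping, and the pollen and tapetum lists lie lower and the green tissue list higher in *top1α-2*.

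Other genes of wall synthesis and remodelling, found by family names outside the pattern above, gave 48 measured genes. Of these 4 rose (8.33%) and 6 fell (12.5%), where 2.96% of all named genes were higher and 5.41% lower. Their median log2 difference was 0.09. Both shares lay above that background, as those of the members did, and with so few genes they are a description and not a test. The 48 genes include *PRP39*, a splicing factor gene that shares only the letters of a wall family and was not called. Endo-β-1,4-glucanase genes of the GH9 family, whose products cut glucan chains, numbered 15, of which 2 rose and 3 fell. *GH9B8* and *GH9B13* rose by 0.80 and 0.52, and *GH9B11*, *GH9A4* and *GH9B18* fell, with log2 differences of −1.97, −1.66 and −0.81. *GH9B11* had 6.39, 5.80 and 5.51 in *top1α-2* and 8.34, 7.63 and 7.65 in the wild type. Of 23 TBL genes, a family that includes acetyltransferases for wall polysaccharides, *TBL36* rose by 0.91 and *TBL20*, *TBL41* and *TBL38* fell, with differences of −1.80, −0.97 and −0.68. *PME41*, listed as *ATPMEPCRB* and encoding a pectin methylesterase, rose by 1.03, with 9.07, 9.06 and 8.95 in *top1α-2* and 7.93, 7.79 and 8.27 in the wild type. *COB*, which guides cellulose orientation, and the xylan genes *IRX15* and *GUT2* were not called.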

How the data were processed

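The deposited values are log2 signals for 22810 probe sets, 1 column per array, made by the authors with affy and MAS5 per the submitters' processing notes. The sources used here do not give versions or filters, and detection calls were not used. After 64 control probe sets were set aside, 22746 were tested in R 4.3.3 with limma 3.58.1 (lmFit, eBayes with a trended variance prior, genotype as the only term), adjusted by Benjamini-Hochberg over all of them. Differences are *top1α-2* minus wild type. No filter, further normalization or pseudocount was used, and the fit was tested on simulated data. Known changes were put only into probe sets above the median signal there, so changes in dim members were not covered.

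Probe sets were named from the platform annotation, which gives 1 gene for 13513, several for 503 and none for 8730. By gene identifier 13436 of the first matched the RefSeq table of TAIR10.1, used for symbols and locus order only. The brightest probe set stood for a gene. Near-identical family members can share signal.

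All called members are named. Values per array are given for up to 8 called members with the highest and 12 with the lowest difference, for 5 markers of the set, for the brightest member of each family and for measured members of role lists. *EXPA15*, *XTH21* and *sks16*, the range of *sks15*, and array values of genes outside the set were added after their values were seen. Members and lists were chosen with earlier results of these data known. Alternatives were median centring, quantile normalization, a pseudocount of 16, leaving out the dimmest 50% of probe sets, a prior without trend, a replicate block, each array left out and all probe sets of a gene. The last could not change the members' counts, since each member had 1 probe set.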

Additional observations from a re-analysis of the deposited data

How the results depend on the processing

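No difference of a called member changed sign under any alternative. Of the 11 called members, 4 kept their call under every alternative in which they were tested, and 7 with each array left out. Without the trend in the variance prior, 3 members were higher and 3 lower. The 3 lower were *EXPB5*, *sks18* and *sks16*, of which *sks16* was not called with the trend. Across the array 209 probe sets were higher and 633 were lower, against 773 and 1334 as reported. This setting ended the calls of *EXLB1*, *EXPA4* and *CSLC04*, which other alternatives ended too. That prior alone ended the calls of *XTH32*, *CSLC12* and *EXPA8*, at limma adjusted p values of 0.054, 0.054 and 0.0515, whose ranges over all alternatives began at 0.00121, 0.00249 and 0.00131. After median centring the array had 1153 higher and 1167 lower. With single arrays left out, members called higher numbered 3 to 5 and lower 4 to 5, and probe sets across the array 357 to 794 higher and 975 to 1335 lower, with 357, 411 and 373 higher without *top1α-2* replicate 1, 2 and 3. Family medians moved by more than the spread between arrays in some settings. Without the dimmest 50% of probe sets, which left 18 members, they were −0.13 for CSLC, −0.91 for EXPB, −2.06 for SKS and 0.72 for XTH, each over fewer genes. With a pseudocount of 16 the SKS median was −0.67. Median centring gave 0.29 for CSLD and 0.17 for EXPA, and quantile normalization 0.18 for EXPA and 0.32 for XTH. With single arrays left out the median ran from −0.01 to 0.24 for EXPA, −0.17 to 0.25 for XTH and −2.10 to −1.14 for SKS. The cause of these moves was not tested. Same-numbered arrays of the genotypes shared only a number in the labels. Deviations from the genotype means correlated at 0.095, 0.089 and 0.208 for numbers 1 to 3, and each array correlated best with its own number. With the replicate block 6 members were higher and 5 lower, and 748 and 1342 probe sets across the array. Adding genes with a family name among their synonyms, an alternative chosen after the data were seen, gave 6 higher and 5 lower of 40. Dim signals limit precision, and 19 of the 37 members lay at or below the median signal. Of these 2 were called higher (10.5%) and 1 lower (5.26%). Named genes of that kind had 0.95% higher and 3.76% lower.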

Other observations

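Family genes were left out of the set where a probe set named several genes or the family name was only a synonym. They had these values. A probe set shared by *EXPA22* and *EXP26* had log2 signals of 2.38, 2.53 and 3.96 in *top1α-2* and 4.86, 4.50 and 4.88 in the wild type, a difference of −1.79 (limma adjusted p of 0.127). A second, shared by *EXPA23* and *EXPA25*, had 6.74, 6.04 and 6.32 in *top1α-2* and 7.14, 7.48 and 7.10 in the wild type, a difference of −0.87 (limma adjusted p of 0.0718). Neither was called, although the genotypes did not overlap in either. *EXPA21* and *EXPA24*, with 4 genes between them in locus order, were not called at 0.69 and −0.49. Of genes known by a family name among their synonyms, *XTH27* and *CSLC08* both had −0.08 and *EXLB2* had 0.62, and 0 of these 3 were called.

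Values of genes beside the called members in locus order were also read. Of 44 positions within 2 genes on either side, 25 had a named probe set, of which 1 was higher and 1 lower, where 2.96% of all named genes were higher and 5.41% lower, so the count is near that background. *TUB1*, a β-tubulin gene near *sks18*, rose by 0.58 where *sks18* fell, and AT2G40620, next to *EXPA8*, fell by 0.87 as *EXPA8* did.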
